A study of Mus musculus with 6 samples.

Results

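Semaphorins, plexins and neuropilins were followed in the brains of mice with and without Dap12, the adaptor protein encoded by Tyrobp. The members are all probe sets (groups of short probes for 1 transcript) whose only gene symbol starts with Sema and a digit or with Plxn, or is Nrp1 or Nrp2. By that rule 79 of the 45101 probe sets on the array belong to the set, and they stand for 32 symbols. These are 20 semaphorin genes, 9 plexin genes, both neuropilin genes and Plxna4os1, an RNA from the strand opposite to Plxna4. RNA from 6 brains was measured on one-colour Affymetrix arrays, 3 labelled Dap12-ko (67, 68 and Ko1) and 3 labelled Dap12-het (75, 76 and 81). Values are given in that order of arrays throughout. All mice were 1 month old. The control mice were heterozygous, so they carried 1 working copy of the gene, and no wild-type mice were compared. The sample labels name brain and the series text names midbrain with diencephalon and basal ganglia. The sources used here give no strain, sex or litter, and nothing says that the samples came from separate litters, so p-values here reflect only how much these samples vary, which may be technical.

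Semaphorins are guidance cues that repel or attract growing axons and migrating cells. Those of class 3 are secreted, those of classes 4 to 6 span the membrane and Sema7a is held by a lipid anchor. They bind plexins, large receptors whose cytoplasmic part switches off small GTPases of the Ras family, and most class 3 semaphorins need a neuropilin as the binding partner of the plexin. In the brain these genes are known for axon and dendrite wiring, oligodendrocyte migration and vessel growth. Plexin-A1 is also known from immune cells and osteoclasts, where it forms a receptor complex with Trem2 and Dap12 and answers to Sema6d. The comparison asks whether transcripts of this ligand and receptor system differ when Dap12 is missing.

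The groups' arrays differed in ways that touch each result below. Every array had been scaled to a trimmed mean signal of 100, but median signals were 24.7 to 40.4 on knockout arrays and 20.3 to 22.0 on heterozygous arrays. All 9 hybridisation control probe sets, which detect RNA added in the laboratory, had all knockout values above all heterozygous values, with group means 3.89 to 7.85 times apart. An effect of genotype cannot be told apart from this difference. The ratio of 3′ to 5′ signal for beta-actin, a sign of RNA quality, was 1.76 to 2.33 on knockout and 1.59 to 2.12 on heterozygous arrays, which overlap. Tyrobp read 2.28, 23.7 and 12.9 in the knockouts against 70.7, 68.2 and 77.6, with every knockout value below every heterozygous one. It fell by 1.68 ± 0.34 (log2 scale, adjusted p = 0.0461 by limma), a call kept in 5 of 14 alternative analyses. The position of its probes relative to the deletion was not examined. Trem2 could not be tested, with signals of 1.93 to 46.2 over the 6 arrays on the brighter of its probe sets.

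Markers of the cell types in such tissue were present, with all 16 neuronal, all 12 astrocyte and 18 of 19 measured microglial genes bright enough to be tested. The summed signal of 16 myelin and mature oligodendrocyte genes was 34171 to 76198 on knockout arrays and 27200.0 to 27934 on heterozygous arrays, and that of 19 microglial genes was 3719.8 to 4314 against 2689 to 3228. Sums for 16 neuronal genes were 25653 to 34375 against 24361 to 25580.3, for 12 astrocyte genes 19831 to 21677 against 14133 to 17274, and for 10 genes of meninges and fibroblasts 5965 to 8280.2 against 3707 to 5437. In these 5 of 8 lists, neurons included, the sum on every knockout array was above that on every heterozygous array. A sum is set mostly by the brightest genes, and single genes were mixed. Tested genes above and below 0 were 11 and 5 for myelin, 14 and 4 for microglia, and 10 and 6 for neurons. They were 6 and 6 for astrocytes and 5 and 4 for meninges, against 41.6% above 0 of all genes (brightest probe sets). The sums of the remaining lists overlapped. For 13 endothelial and pericyte genes the sums were 1503 to 2577 against 1985 to 2122, and for 10 oligodendrocyte precursor genes 2638 to 3299 against 3109 to 3215. Sums for 10 genes of choroid plexus and ependyma ran from 833 to 18220.5 on knockout and from 1193 to 4000.2 on heterozygous arrays. The part of these differences in the results below was not tested. In whole tissue, fewer cells of a type and less RNA per cell cannot be told apart.

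No semaphorin, plexin or neuropilin passed the test. Signals were compared as log2(signal + 16), a scale that understates differences of dim probe sets, and a probe set was tested if its mean signal lay above the median of all probe sets, 26.7. Of the 79 members, 55 were tested, covering 30 of the 32 symbols. At an adjusted p of 0.05, 0 of the 55 were called (limma), against 2.07% of all 22518 probe sets tested (1.32% higher and 0.751% lower). At an unadjusted p under 0.05 there were 14 members (25.5%), 5 higher and 9 lower, against 21.2% of all (11.9% higher and 9.26% lower). The groups did not overlap for 13 members (23.6%), 4 higher and 9 lower on knockout arrays, against 27.7% of all (15.1% higher and 12.5% lower). Counted over both directions, the members lay near the background. By direction, 9.09% were higher and 16.4% lower at the unadjusted p (limma), and 7.27% were higher and 16.4% lower without overlap. Both counts thus held fewer higher and more lower members than the background. The smallest adjusted p, 0.0748, belonged to a probe set of Sema6a.

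More members leaned down than up. The log2 difference, knockout minus heterozygous, was below 0 for 36 and above 0 for 19 of the 55 (34.5% above, against 50.3% of all tested probe sets). The median was -0.14, against 0.0037 for all. Without Ko1 the lean was smaller, with 26 of 55 above 0 and a median of -0.035, against 0.029 for all. Without any other single array 17 to 21 of 55 were above 0. Without the filter on mean signal 39 of 79 were above 0, with a median of -0.0072 against 0.16 for all. Shares above 0 over all probe sets were not counted in these settings. On the brightest probe set of each gene, 23 of 30 genes lay below 0 and 7 above (23.3% above, against 41.6% of 11446 genes), with a median of -0.32 against -0.09. Among these 30, none was called (limma), against 1.43% of genes. At an unadjusted p under 0.05 there were 0 higher and 7 lower, against 6.39% and 11.6% of genes, and the groups did not overlap for 1 higher and 8 lower (26.7%), against 10% and 16.1% of genes (26.1% in either direction). Most members lay below 0 under each scaling, with 16 of 55 above 0 after quantile normalization and 6 with each array centred on its median. The share above 0 over all probe sets was not counted in these 2 settings, so these counts have no background. After quantile normalization the median was -0.16 for members and -0.06 for all. With centring the median over all probe sets was -0.40 and that of the members -0.54. Centring moves every probe set of an array by the same amount, so the gap of -0.14 between members and all probe sets could not change. In that setting 2 members (3.64%) were called, against 2.58% of all, Sema4g (-1.36 ± 0.25, limma adjusted p = 0.0383) and Sema6a (-1.22 ± 0.21, limma adjusted p = 0.0336).

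**Figure D1:**
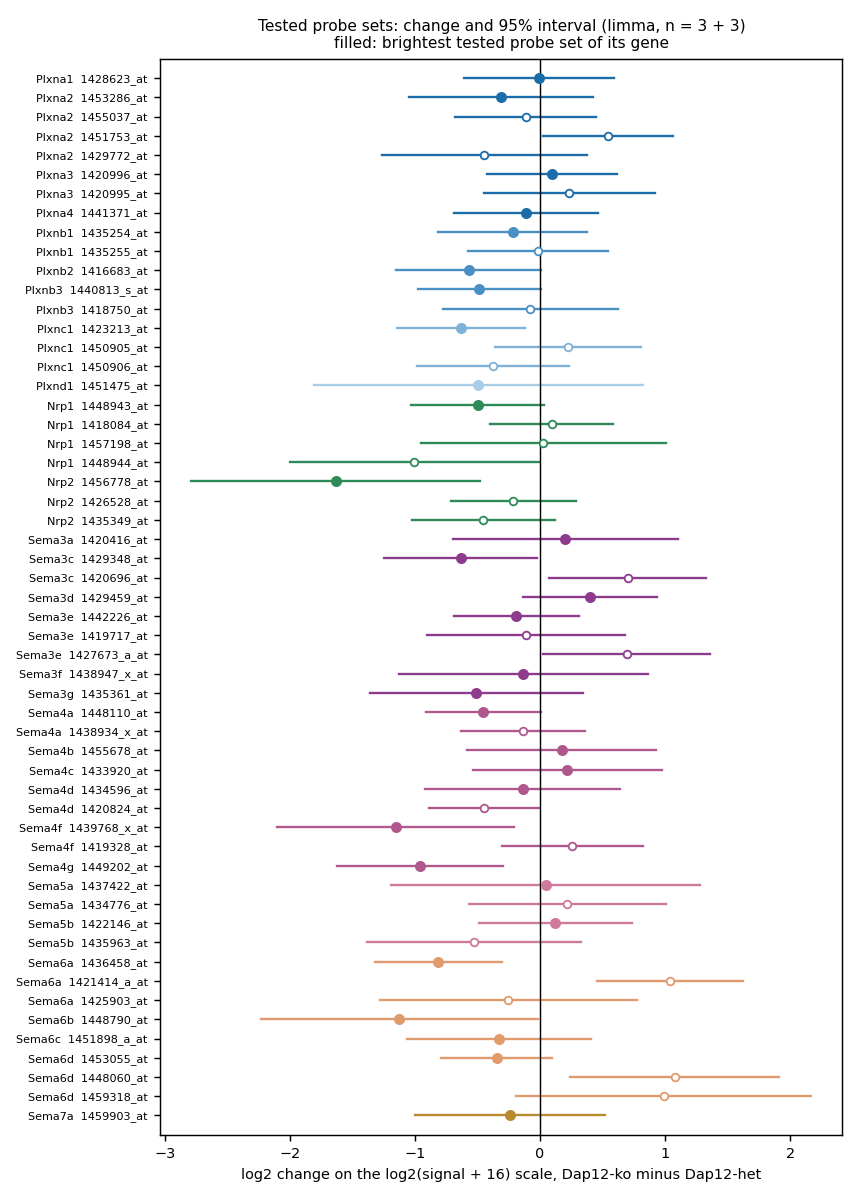
Log2 change (x axis, Dap12-ko minus Dap12-het, on the log2(signal + 16) scale) of the 55 tested probe sets, 1 row each, with the 95% interval of the limma fit. Colours mark the classes and filled points the brightest tested probe set of a gene. Changes run from -1.63 for Nrp2 to 1.07 for Sema6d, and open and filled points of 1 gene often lie on opposite sides of 0.

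Plexin-A1, the receptor linked to Trem2 and Dap12, did not differ between the groups by more than the spread of the arrays. Its tested probe set (1428623_at) read 227, 202 and 117 in the knockouts against 191, 193 and 149.7. Knockout 67 and 68 lay above all heterozygous arrays and Ko1 below all of them. The group means were 182 ± 57.7 and 178 ± 24.5 (SD, n = 3), and the log2 difference was -0.01 ± 0.26 (limma adjusted p = 0.99), with a 95% interval from -0.61 to 0.59. The interval leaves room for a difference of that size in either direction. Over 15 alternative analyses the difference ran from -0.53 to 0.26, with 6 of the opposite sign and 0 called (limma). A dim second Plxna1 probe set was left untested, at 3.51 to 6.68 on knockout and 1.42 to 8.01 on heterozygous arrays.

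The other class A plexins, which transmit class 3 and class 6 semaphorin signals in axons, gave 7 tested probe sets and 0 calls (limma). Plxna2, a receptor for Sema6a, had 4 of them. The probe set 1451753_at read 178, 137 and 106 in the knockouts against 83.2, 85.4 and 100.1. All 3 knockout arrays were higher (0.54 ± 0.23, limma adjusted p = 0.219). The brightest Plxna2 probe set gave -0.32 ± 0.32, and the remaining pair -0.11 ± 0.25 and -0.45 ± 0.36, so the higher one stood alone. Plxna3 was at 83.8 ± 12.9 against 78.0 ± 17.7 and Plxna4 at 124 ± 42.7 against 132 ± 17.6 (SD, n = 3, brightest probe sets), both with overlapping arrays. Plxna4os1 was below the limit for testing. Its signals were 17.4, 24.5 and 10.3 in the knockouts against 7.27, 0.902 and 8.91.

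All 5 probe sets of class B plexins lay below 0, with 0 calls (limma) and log2 differences from -0.57 to -0.01. Class B plexins are receptors of class 4 semaphorins. Plxnb3, which is known from oligodendrocytes, read 200.3, 146 and 127 in the knockouts against 216, 214 and 241 on its brighter probe set. Each knockout array was lower than each heterozygous array (-0.48 ± 0.21, limma adjusted p = 0.239). The name of that probe set, ending in _s_at, marks probes shared with other transcripts, and the second Plxnb3 probe set gave -0.08 ± 0.31. Plxnb2, broadly expressed in neural precursors and glia, read 90.5, 171 and 118 against 199, 157 and 220.3, with knockout 68 above the lowest heterozygous array (-0.57 ± 0.26, limma adjusted p = 0.243). Plxnb1, the receptor of Sema4d, was at 141 ± 52.5 against 159.7 ± 4.02 (SD, n = 3), with knockout 67 above and the other knockout arrays below all heterozygous arrays.

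Plxnc1, the receptor of Sema7a, was lower on its brightest probe set. That probe set read 186, 222 and 317 in the knockouts against 351, 374 and 401. The groups did not overlap, and the log2 difference was -0.63 ± 0.23 (limma adjusted p = 0.158). The other tested pair of Plxnc1 probe sets gave 0.22 ± 0.26 and -0.38 ± 0.27. Plxnd1, a receptor of Sema3e known from endothelium, spread more within the groups than between them. It read 3.79, 46.9 and 87.3 in the knockouts against 33.7, 48.8 and 95.5 (-0.49 ± 0.58, limma adjusted p = 0.661).

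Neuropilins, the co-receptors for class 3 semaphorins and for VEGF, had 7 tested probe sets, 5 below 0 and 2 above, with 0 calls (limma). The largest difference among all members was in Nrp2, on which Sema3f depends. Its brightest probe set (1456778_at) read 20.5, 21.8 and 138 in the knockouts against 139.7, 178 and 193. Knockout 67 and 68 were far below the heterozygous arrays, while Ko1 lay next to the lowest of them. The log2 difference was -1.63 ± 0.51 (limma adjusted p = 0.121), and 2 of 15 alternative analyses called it. Without Ko1 it was -2.32 ± 0.22 (limma adjusted p = 0.000752), in a fit that called 23.8% of all probe sets. Without knockout 67 and 68 it was -0.27. The 2 other tested Nrp2 probe sets gave -0.21 ± 0.22 and -0.46 ± 0.25, with overlapping groups. Nrp1, the partner of Sema3a, read 254, 174 and 146 in the knockouts against 246, 266 and 303 on its brightest probe set (-0.50 ± 0.23, limma adjusted p = 0.26). Only knockout 67 lay within the heterozygous range there. The 3 other Nrp1 probe sets gave -1.01 ± 0.44, 0.03 ± 0.43 and 0.09 ± 0.22.

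Class 3 semaphorins, the secreted ligands, had 9 of 18 probe sets tested, 4 above and 5 below 0, with 0 calls (limma). Sema3c, a ligand active in vessel and cardiac development, gave opposite results on its 2 probe sets. The brighter one read 124, 89.0 and 143 in the knockouts against 267, 145 and 175 (-0.63 ± 0.27, limma adjusted p = 0.222). The dimmer one read 38.9, 48.4 and 37.0 against 22.2, 19.1 and 16.7 (0.70 ± 0.28, limma adjusted p = 0.195). In neither did the groups overlap. Sema3d was higher on every knockout array, at 65.4, 49.7 and 48.3 against 37.2, 35.6 and 38.4 (0.40 ± 0.24, limma adjusted p = 0.367). With arrays centred on their medians that difference became -0.0013. For Sema3e, the ligand of plexin-D1, the brightest probe set gave -0.19 ± 0.22 and the dimmest tested one 0.69 ± 0.29 (limma adjusted p = 0.223).

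Sema3a, the classical growth cone collapsing factor, read 48.7, 62.5 and 171 in the knockouts against 50.5, 71.4 and 91.1. Ko1 alone was above the heterozygous range, and the difference was 0.20 ± 0.40 (limma adjusted p = 0.807). Sema3f, the repellent that signals through Nrp2, was at 69.5 ± 36.2 against 79.7 ± 45.8 (SD, n = 3). The name of that probe set ends in _x_at, which marks probes that may cross-hybridise. Dim Sema3f probe sets were left untested, with means of 9.93 in the knockouts against 22.9 and of 6.34 against 24.4. Sema3g, known from endothelium, was at 23.6 ± 19.2 against 36.7 ± 5.42 (SD, n = 3), with knockout 68 above and the other knockout arrays below all heterozygous arrays. Sema3b had no tested probe set.

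**Figure D2:**
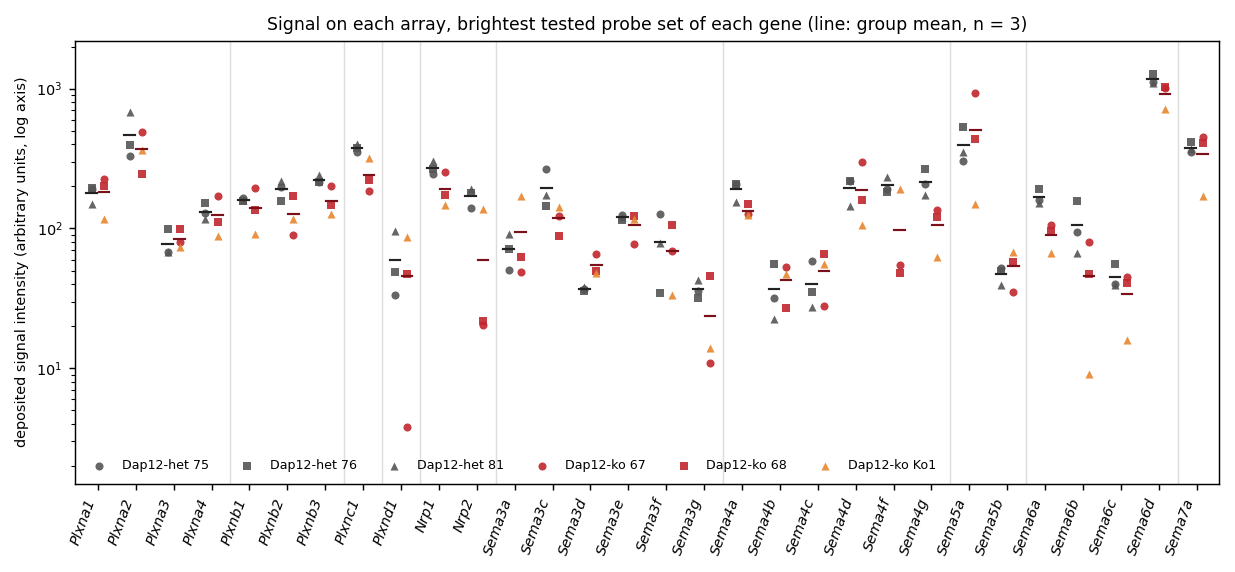
Deposited signal (y axis, arbitrary units, log axis) of each of the 6 arrays for the brightest tested probe set of 30 genes, with heterozygous arrays in grey and knockout arrays in red or, for Ko1, orange. Lines are group means (n = 3). The groups do not overlap for 8 genes lower on knockout arrays, among them Sema4g, Sema6a, Sema4a, Plxnc1 and Nrp2, and for 1 higher, Sema3d. Knockout arrays spread from 20.5 to 138 for Nrp2, from 48.0 to 192 for Sema4f and from 149.8 to 927 for Sema5a.

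Class 4 semaphorins, membrane-bound ligands that also act in the immune system, had 9 of 11 probe sets tested, 6 below and 3 above 0, with 0 calls (limma). Sema4g had the lowest p of those below 0 in this class. It read 136, 120.5 and 62.1 in the knockouts against 207, 268 and 173. All knockout arrays were lower, at 106 ± 38.8 against 216 ± 48.2 (SD, n = 3), with a log2 difference of -0.96 ± 0.29 (limma adjusted p = 0.116). Sema4a, a ligand of class B plexins and plexin-D1, read 127, 149 and 126 against 209, 207 and 155, without overlap (-0.45 ± 0.20, limma adjusted p = 0.242). Its second probe set gave -0.14 ± 0.22.

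Sema4d, the ligand of plexin-B1 made by oligodendrocytes and lymphocytes, read 131, 134 and 127 in the knockouts against 219.6, 168 and 169 on probe set 1420824_at. The knockout arrays were close to each other and below all heterozygous arrays (-0.45 ± 0.19, limma adjusted p = 0.23). The brightest Sema4d probe set read 297, 159 and 106 against 220.03, 219 and 145, with overlap (-0.14 ± 0.34). Sema4f, expressed by neurons and glia, split the knockout arrays. Its brighter probe set read 54.7, 48.0 and 192 in the knockouts against 192, 182 and 235 on heterozygous arrays (-1.15 ± 0.42, limma adjusted p = 0.162), the same division of knockout arrays as in Nrp2. That probe set's name ends in _x_at, which marks probes that may cross-hybridise, and the dimmer Sema4f probe set gave 0.26 ± 0.25. Sema4b and Sema4c, a ligand of plexin-B2, gave 0.17 ± 0.33 and 0.22 ± 0.33.

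Class 5 semaphorins, which carry thrombospondin repeats, had 4 tested probe sets with 0 calls (limma). Sema5a spread widely among knockout arrays. It read 927, 439.9 and 149.8 in the knockouts against 304, 533 and 354, so one knockout array was above and another below all controls (0.04 ± 0.54, limma adjusted p = 0.973). Sema5b gave 0.12 ± 0.27 on its brighter and -0.53 ± 0.38 on its dimmer probe set.

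Class 6 semaphorins, membrane ligands of class A plexins that can also act as receptors, had 8 tested probe sets and 0 calls (limma). At an unadjusted limma p under 0.05 there were 4, 2 higher and 2 lower, against 21.2% of all probe sets tested. Sema6a, which is known from oligodendrocytes and cerebellar granule cells, had the members' 2 smallest p-values, with opposite directions. Probe set 1421414_a_at read 93.7, 133 and 81.9 in the knockouts against 30.3, 43.6 and 51.2 (1.04 ± 0.26, limma adjusted p = 0.0748). Probe set 1436458_at read 106, 95.4 and 66.8 against 159, 192 and 153 (-0.81 ± 0.22, limma adjusted p = 0.0927). In both the groups were fully apart. The other tested Sema6a probe set overlapped (-0.25 ± 0.45), so the data give no single direction for this gene.

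Sema6d, the plexin-A1 ligand, also differed by probe set. The brightest read 1015, 1032 and 716 in the knockouts against 1113, 1270 and 1106, without overlap (-0.35 ± 0.19, limma adjusted p = 0.343). The 2 dimmer ones tested gave 1.07 ± 0.37 (limma adjusted p = 0.147) and 0.99 ± 0.52 (limma adjusted p = 0.311), with overlapping groups. Sema6b read 80.3, 47.4 and 9.10 in the knockouts against 94.8, 158 and 66.7 on heterozygous arrays, and Ko1 was far below the rest (-1.13 ± 0.49, limma adjusted p = 0.229). Sema6c gave -0.33 ± 0.32. Sema7a, the lipid-anchored ligand of Plxnc1, read 453, 407 and 171 against 349.9, 414 and 372, with Ko1 again the lowest (-0.24 ± 0.33, limma adjusted p = 0.718).

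The direction found for a gene thus often hung on the probe set. Of 16 genes with 2 or more tested probe sets, 9 (56.3%) had log2 differences on both sides of 0, against 61.6% of 5187 such genes on the array. For 2 of them, Sema3c and Sema6a, one probe set was higher on all knockout arrays and another lower (12.5%, against 7.5% of all). Probe sets of a gene were also compared within each array, as the brighter minus the dimmer value of log2(signal + 16). Because of the added constant, the scaling of an array does not fully cancel in this ratio where a probe set is dim. Of 36 such pairs, the groups did not overlap for 8 (22.2%, against 34.4% of 13649 pairs). All 8 ratios were lower on the knockout arrays, and of the 4700 such pairs over all genes 3401 were lower. For Sema6a the ratio was 0.16, -0.42 and -0.24 in the knockouts against 1.92, 1.81 and 1.33. It differed by -1.85 on the log2 scale (exact permutation p = 0.1, two-sided, the smallest that 3 arrays against 3 can give). For Sema3c the difference was -1.33, for Nrp2 -1.42 and for Sema6d -1.42, with the same exact permutation p of 0.1. These pairs were picked after their values were seen, as pairs whose groups do not overlap. Any such pair gives an exact permutation p of 0.1 with 3 arrays against 3, so the p adds nothing to the selection.

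**Figure D3:**
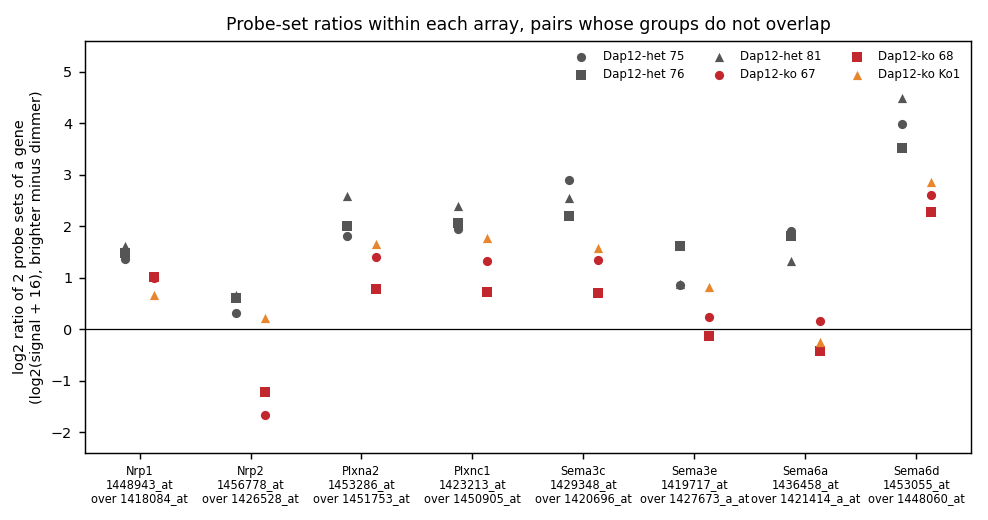
Log2 ratio of 2 probe sets of the same gene within each array (y axis, brighter minus dimmer, on the log2(signal + 16) scale) for the 8 pairs whose groups do not overlap. Every knockout array lies below every heterozygous array in each pair, with the widest gap for Sema6a (-0.17 ± 0.30 against 1.68 ± 0.31, SD, n = 3).

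The 3 knockout arrays did not move as one for these members. Of the 55 tested members, 24 were on the same side of the heterozygous mean on all 3 knockout arrays, 8 above and 16 below, and 31 were mixed. That pattern was not counted over all probe sets, so whether it is unusual is not known. Taken singly, 45.5%, 43.6% and 34.5% of members lay above that mean on 67, 68 and Ko1, against 52.3%, 51.9% and 50.7% of all. The median deviation of the members was -0.05 on knockout 67, -0.13 on 68 and -0.29 on Ko1, while that of all probe sets tested was 0.04, 0.03 and 0.01. Nrp2, Sema4f and Plxnc1 deviated more on 67 and 68 than on Ko1. Sema6b, Sema7a and Sema5a were lowest on Ko1. Sema4g deviated by -0.59, -0.74 and -1.55 on 67, 68 and Ko1.

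**Figure D4:**
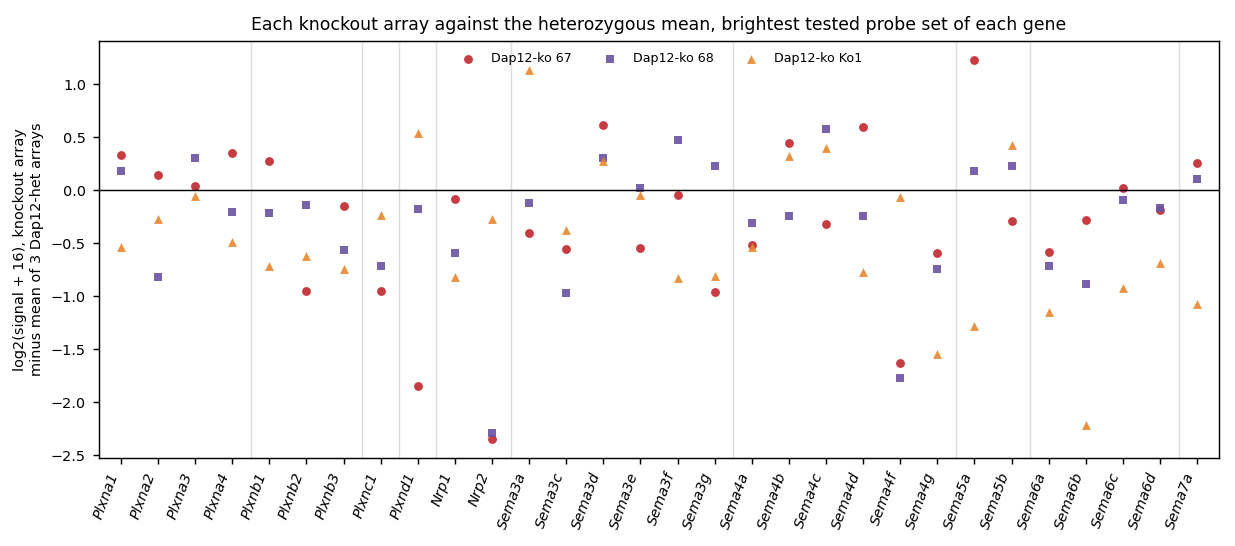
Deviation of each knockout array from the mean of the 3 heterozygous arrays (y axis, log2(signal + 16) units) for the brightest tested probe set of each of 30 genes. Nrp2 lies at -2.34 and -2.29 on knockout 67 and 68 and at -0.27 on Ko1, while Sema6b lies at -0.28, -0.88 and -2.22.

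Leaving out knockout Ko1 changed the count. Then 7 of 55 members (12.7%) were called, 3 higher and 4 lower, against 23.8% of all probe sets (limma). The higher ones were 1421414_a_at of Sema6a, 1448060_at of Sema6d and 1451753_at of Plxna2. The lower ones were in Nrp2, Sema4f, Plxnc1 and, on 1436458_at, Sema6a. With arrays weighted by their fit to the model 9 members (16.4%) were called, against 22.1% of all. Without knockout 67 and 68 there were 2, Sema4g (-1.55 ± 0.27, limma adjusted p = 0.0469) and Sema7a (-1.07 ± 0.19, limma adjusted p = 0.0469), against 2.54% of all. In that fit the lone knockout array was assumed to vary like the heterozygous ones. Without any other single array 0 members were called (limma), with 7 to 9 at an unadjusted p under 0.05. There were also 0 (limma) with quantile normalization (0.555% of all probe sets), a floor of 1 (1.46%), 64 added (1.95%), no filter (0.275%), a filter that removed the dimmest 75% of probe sets (3.4%) or no trend in the variance (0.764%), with 9 to 20 members at an unadjusted p under 0.05.

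The 24 dim probe sets were not tested, and 19 of them had the higher mean on knockout arrays. That share was not counted over all dim probe sets, so the 19 cannot be set against a background. In 7 the groups did not overlap and the means were at least 2 times apart, 6 higher and 1 lower, against 17.3% higher and 1.99% lower of all 22519 dim probe sets. A dim probe set of Plxnc1 read 27.2, 36.2 and 41.1 against 10.2, 22.2 and 5.88. The others that were higher belong to Sema3a, Sema3b, Sema3d, Sema7a and Plxna4os1. The lower one, of Sema3f, read 11.2, 4.64 and 3.22 against 38.1, 16.6 and 18.6. No dim member exceeded a signal of 65.5 on any array.

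Co-receptors and effectors of semaphorin signalling were taken from a list of 52 genes, of which 48 were measured and 45 tested on their brightest probe set. Of these, 2 fell and 0 rose (limma), against 1.04% lower and 0.393% higher among 11446 genes. One of them is Tyrobp itself, the gene knocked out by design, so only the other can be set against that share. The other is L1cam, the adhesion molecule that forms part of the Sema3a receptor with Nrp1. It read 633, 561 and 548 in the knockouts against 937, 1071 and 1234, without overlap, and fell by 0.87 ± 0.18 (log2 scale, adjusted p = 0.0491 by limma). Its second probe set gave 0.21 ± 0.24, and the call held in 4 of 15 alternative analyses. Without any single array other than Ko1, 0 of the 45 were called (limma). Without Ko1 there were 13, in a fit that called 23.8% of all probe sets tested. That share is of probe sets, while the 13 are genes on their brightest probe set. The share of all genes called in that fit was not counted.

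Dpysl3, a collapsin response mediator protein that carries the Sema3a signal to microtubules, read 229, 296 and 164 in the knockouts against 493, 464 and 367 (-0.92 ± 0.24, limma adjusted p = 0.0875). Its 2 other probe sets gave 0.13 ± 0.20 and 0.22 ± 0.32. The partners with the smallest p above 0 were Cfl1, the actin-severing protein cofilin (0.59 ± 0.17, limma adjusted p = 0.109), Itgb1, the integrin subunit that binds Sema7a (1.09 ± 0.33, limma adjusted p = 0.113), and the GTPase Rhoa (0.94 ± 0.30, limma adjusted p = 0.126). For these 3 each knockout array was above each heterozygous array. Among the 45 partners the groups did not overlap for 7 higher and 10 lower, against 10% and 16.1% of genes. The name of the Cfl1 probe set ends in _x_at and that of the Rhoa probe set in _s_at. The other tested probe sets of Cfl1, Itgb1 and Rhoa overlapped, at -0.24 ± 0.35, 0.22 ± 0.32 and 0.59 ± 0.30. In all, 20 partners were above and 25 below 0, with a median of -0.14 against -0.09 for all genes.

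**Figure D5:**
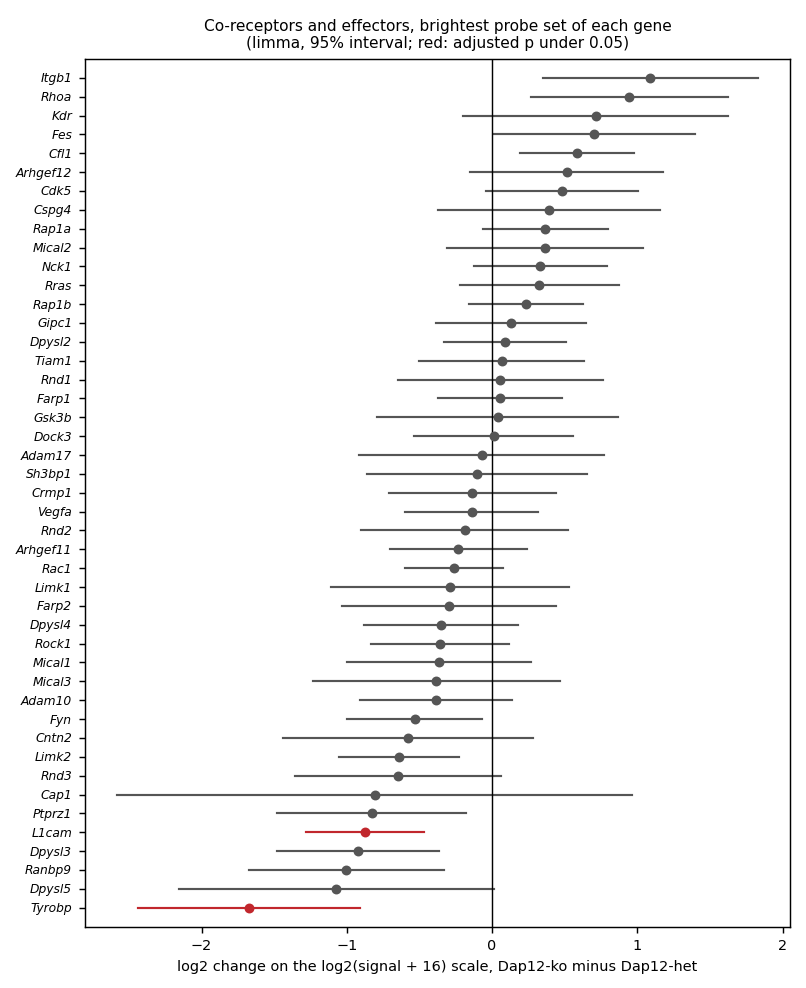
Log2 change (x axis, Dap12-ko minus Dap12-het, on the log2(signal + 16) scale) with 95% interval (limma) for the brightest probe set of 45 co-receptors and effectors, in order of change. Only Tyrobp (-1.68) and L1cam (-0.87), in red, passed an adjusted p of 0.05, while Itgb1 (1.09) and Rhoa (0.94) stood at the upper end.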

How the data were processed

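The deposited table gives 1 linear signal intensity per probe set and array, made by the authors with GCOS, the Affymetrix scanner software, per the submitters' processing notes; the sources used here give no version or summary method, and detection calls were not used. RNA was extracted with Trizol and RNeasy and labelled by the Affymetrix one-cycle method, per the labels' protocols. Each array had a trimmed mean of 100 (leaving out the top and bottom 2%), and that scaling was kept. Genes were named from probe sets with 1 symbol in the platform annotation. All 79 members had the same symbol in RefSeq for GRCm38.p6, and no coordinates are given because the files name no build.

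Control probe sets were left out, and those with a mean signal above the median were tested with limma 3.58.1 in R 4.3.3 (log2(signal + 16), lmFit with a term for group, eBayes with trend, two-sided, Benjamini-Hochberg adjustment over all 22518). Errors of log2 differences are standard errors. The fit was tested on simulated data. The number of arrays limits the precision. Members and lists were chosen with earlier results of these data known. Probe sets were named if they belonged to Plxna1, were called, were among the 8 smallest p in each direction or were the brightest of their gene. Dim members were named if the groups did not overlap and the means were 2 times apart. Tyrobp, Trem2 and the 3 partners with the smallest p in each direction were also named. Alternatives changed the scaling, added constant, filter, variance model and arrays.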

Additional observations from a re-analysis of the deposited data

How the results depend on the processing

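No paired analysis was possible because the groups share no replicate number.

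With 0 members called in the analysis reported, the count was 2 with arrays centred on their medians, 9 with array weights and 2 without knockout 67 and 68, and 0 to 7 when 1 array was left out in turn, the 7 without Ko1. The median log2 difference of tested members was -0.54 with arrays centred, -0.0072 without a filter on level (79 members), -0.28 with the dimmest 75% of probe sets removed (26 members), -0.29 without knockout 67 and 68, and -0.29 to -0.035 with 1 array left out. The partner count of 2 became 0 with quantile normalization, a floor of 1, no filter or no trend, 1 with 64 added or with that stricter filter, 4 with arrays centred, 11 with array weights, 6 without knockout 67 and 68, and 0 to 13 with 1 array left out. The share of all genes called was not counted for these alternatives, so the partner counts have no background by gene. Over all probe sets 466 were called, 63.7% of them higher. With arrays centred 580 were called and 17.6% were higher. The count was 4971 with array weights, 329 with a floor of 1, 172 without a trend, 125 with quantile normalization, 124 without a filter, 29 without heterozygous 76, 5358 without Ko1 and 0 without any other single array (limma; 2867 to 3956 at an unadjusted p under 0.05). The causes were not tested.

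Of 641 values of named probe sets under alternatives, 603 kept their sign. The 38 others belong to probe sets that were not called. With quantile normalization they were Plxna1 (0.095), Sema5b (-0.15), Sema4c (-0.058) and Sema4b (-0.16). With arrays centred they were Sema3d (-0.0013), the dimmer Sema4f (-0.14), Sema3a (-0.20), Plxna3 (-0.31), Sema5b (-0.28), Sema4c (-0.18), Sema5a (-0.36) and Sema4b (-0.23). With 64 added the sign turned for Plxna1 (0.0011). With array weights it turned for Plxna1 (0.081), Sema3f (0.10), Sema4b (-0.078) and Sema7a (0.035). Without knockout 67 and 68 it turned for Plxna3 (-0.052), Sema5a (-1.28) and Plxnd1 (0.54). With 1 array left out in turn, values ran from -0.18 to 0.26 for Plxna1, -0.0069 to 0.25 for Plxna3, -0.35 to 0.073 for Plxna4, -0.46 to 0.026 for Plxnb1 and -1.01 to 0.18 for Plxnd1. They ran from -0.26 to 0.50 for Sema3a, -0.54 to 0.21 for Sema3f, -0.031 to 0.42 for Sema4b, -0.51 to 0.17 for the brightest Sema4d, -0.55 to 0.70 for Sema5a, -0.030 to 0.33 for Sema5b and -0.49 to 0.18 for Sema7a. Detection calls were not used here, so which dim signals lie above background is not known.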
